A study of Mus musculus with 2 samples.

Results

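The enzymes that make prostaglandins, thromboxane and leukotrienes were examined in alveolar macrophages, which live in the airspaces of the lung and clear surfactant and inhaled particles, from the array labelled PIKfyve knockout and the array labelled wild type. The set held 10 genes: Hpgds, Ptgs1, Ptgs2, Ptges, Tbxas1, Alox5, Alox5ap, Alox15, Ltc4s and Lta4h. A row (probe set) of the deposited table was used where the platform annotation gives exactly 1 gene symbol and that symbol is in the set. By this rule 9 of the 10 genes were found, on 11 of 41345 rows, among 22180 genes in all. Ptgs1, which encodes the constitutive cyclooxygenase, was matched to no such row, so no expression value of it is analysed here. The genes were selected on their place in the pathway, with their knockout minus wild type differences on these same arrays already known, so the differences are given as a description and support nothing.

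The array labelled knockout holds RNA of mice carrying floxed Pikfyve alleles together with LysM-Cre (PIKfyve f_f_lysm_cre), and the array labelled wild type holds RNA of mice with the floxed alleles and no Cre named (PIKfyve f_f). All were adult C57BL6 mice, with knockout and wild type animals taken from the same litters and kept free of specific pathogens. LysM-Cre is expressed from the lysozyme 2 locus, which is active in many myeloid cells, so the deletion is not limited to alveolar macrophages. Lung cells freed by collagenase were sorted as DAPI-negative, Siglec-F+ and CD11c+. Each genotype had 1 array, and whether its RNA came from a single animal or a pool is not stated. No value below has a replicate error, and no difference between the genotypes was tested.

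Prostaglandins and leukotrienes, the eicosanoids, are lipid mediators made from arachidonic acid after a phospholipase releases it from membranes. Cyclooxygenases turn arachidonic acid into prostaglandin H2, and separate synthases then turn that intermediate into prostaglandin D2, prostaglandin E2 or thromboxane A2. In the other branch a lipoxygenase, aided by a membrane protein that presents the substrate, makes leukotriene A4, which becomes either leukotriene B4, an attractant for neutrophils, or leukotriene C4, the parent of the cysteinyl leukotrienes that contract airways. Alveolar macrophages are a known source of both kinds of mediator in the lung.

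The values are RMA signals on the log2 scale, and differences are knockout minus wild type. The median of all rows was 5.10 on the knockout array and 5.17 on the wild type array. The 95th percentile of 1428 olfactory, vomeronasal and taste receptor genes, which few cells outside sensory tissue express, served as the background level. It was 5.31 on the knockout array and 5.37 on the wild type array. Genes entered the comparison at a mean level of 5.13 or more, the median over rows, which kept 12516 genes. As a measure of scatter, the local spread (the scaled median absolute deviation of differences among genes of similar level) ran from 0.20 to 0.33. Pikfyve itself read 5.95 on the knockout array and 5.68 on the wild type array, so it was not lower in the knockout. The sources used here do not give the position of its probes against the floxed exons, so this row does not check the labels, and the arrays are called by their labels. All 10 alveolar macrophage markers that were measured lay above background on both arrays, the sorted proteins' genes included. Siglecf read 8.54 on the knockout array and 9.27 on the wild type array, and Itgax, which encodes CD11c, read 10.39 on the knockout array and 10.03 on the wild type array.

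Of the 9 enzymes, Hpgds stood at a 3.88-fold higher signal on the knockout array, and each of the other 8 differed by less than 1.5-fold. The genes of the leukotriene branch, Alox5, Alox5ap, Lta4h and Ltc4s, lay well above background on both arrays. So did the thromboxane synthase gene Tbxas1. Ptgs2 and Alox15 lay below background on both arrays. Ptges reached background on the knockout array alone. Of the 7 enzymes that passed the filter, 1 was at least 1.5-fold higher on the knockout array, where 4.45% of all genes that passed were, and 0 were at least 1.5-fold lower, where 2.66% of all genes were. At 2-fold the counts were also 1 higher and 0 lower, beside 0.927% and 0.336% of all genes, and nothing is read from these shares. The median difference of those 7 was -0.01, beside 0.00 over all genes that passed. Just inside the filter was Ptges, with a mean level of 5.18, and just outside were Ptgs2, with a mean level of 5.02, and Alox15, with a mean level of 4.94.

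**Figure D1:**
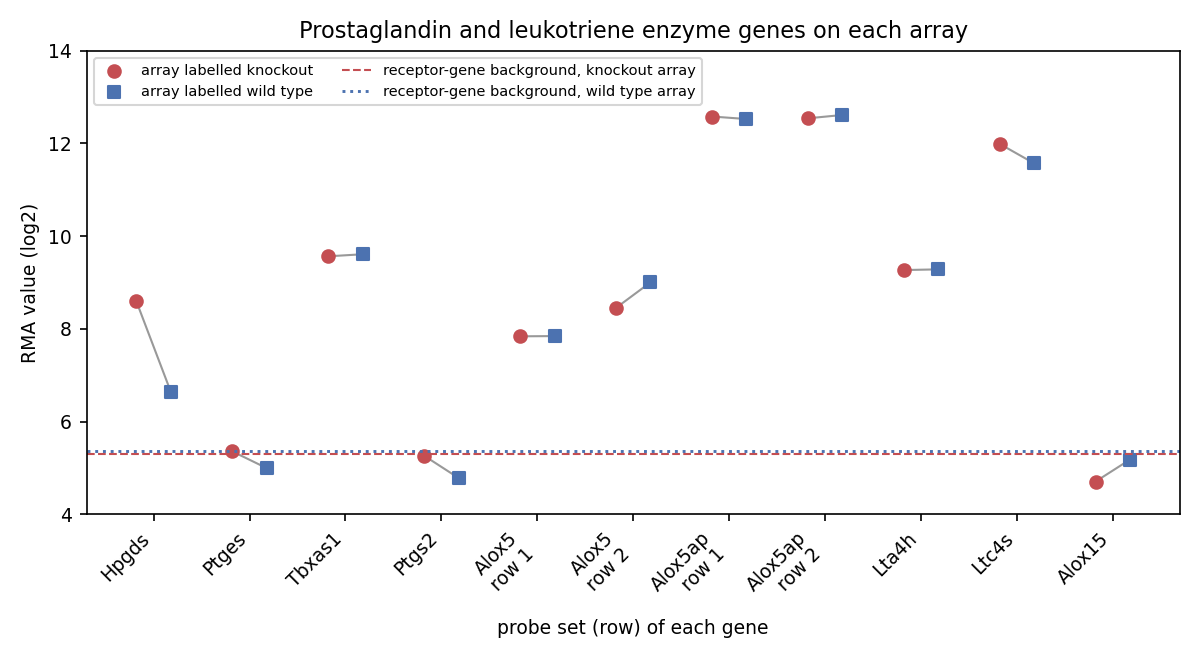
RMA value (log2) of each of the 11 rows of the 9 enzyme genes, with the knockout array as a circle on the left of each pair and the wild type array as a square on the right; each point is a single array, with no error bar. The dashed and dotted lines mark the background level, 5.31 on the knockout array and 5.37 on the wild type array. The Hpgds pair is the one set far apart, at 8.60 on the knockout array and 6.64 on the wild type array, while the 2 Alox5 rows differ from each other in slope.

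Prostaglandin H2 is the branch point of the prostanoid synthases. Hpgds encodes the hematopoietic prostaglandin D2 synthase, a cytosolic enzyme of the glutathione transferase superfamily. It read 8.60 on the knockout array, against 6.64 on the wild type array, a difference of 1.96 where the local spread was 0.31. Both readings lay above background, by 3.29 on the knockout array and by 1.27 on the wild type array. Among the 12516 genes its difference held rank 23 from the highest. It had a single row, so no other probe set bears on the difference. Under the other scalings and summaries that were tried its fold lay between 3.18 and 4.07.

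Tbxas1 encodes thromboxane A synthase, a cytochrome P450 enzyme that uses the same intermediate. It read 9.57 on the knockout array and 9.61 on the wild type array, a difference of -0.04. The arrays were thus close for this synthase while they were far apart for Hpgds. Ptges encodes the inducible microsomal prostaglandin E synthase. It read 5.36 on the knockout array and 4.996 on the wild type array. Since the wild type reading lay below background and the knockout reading did not exceed the wild type background level, no fold is given.

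Ptgs2 encodes the inducible cyclooxygenase, which is low in resting macrophages and rises after inflammatory stimuli. It read 5.26 on the knockout array and 4.78 on the wild type array, below background on both, so no fold is given. With no value for Ptgs1, no cyclooxygenase gene had a reading above background.

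The promoters of Hpgds and Tbxas1 are shown because these synthases share a substrate and differed in how far apart the arrays were. Both windows run from 250 bases before to 50 bases after a transcript start of the gene and were taken from RefSeq (build GRCm38.p6). Hpgds lies at chr6:65144681-65144980 on the minus strand, and Tbxas1 at chr6:38918736-38919035 on the plus strand. Capitals in Hpgds mark CATGTG. In Tbxas1 they mark first a STAT6-type element (TTC and GAA with any 4 bases between). The next mark is an AP-1-type element (TGANTCA, with any base at N).
Hpgds: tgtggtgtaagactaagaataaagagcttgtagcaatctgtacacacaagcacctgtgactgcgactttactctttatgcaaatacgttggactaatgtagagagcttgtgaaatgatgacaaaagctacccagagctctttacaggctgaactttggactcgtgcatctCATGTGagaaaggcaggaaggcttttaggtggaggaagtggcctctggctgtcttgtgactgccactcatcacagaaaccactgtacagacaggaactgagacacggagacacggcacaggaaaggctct
Tbxas1: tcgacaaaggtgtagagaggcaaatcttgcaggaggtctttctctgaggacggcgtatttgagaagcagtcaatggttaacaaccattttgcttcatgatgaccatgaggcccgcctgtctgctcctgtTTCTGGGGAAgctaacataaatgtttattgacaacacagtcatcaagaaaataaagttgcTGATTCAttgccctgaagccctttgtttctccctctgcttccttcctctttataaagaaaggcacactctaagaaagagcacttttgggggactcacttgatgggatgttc

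Of the 10 genes of the set, 8 had a promoter in that table: Hpgds, Ptgs1, Ptgs2, Ptges, Tbxas1, Alox5, Ltc4s and Lta4h. Ptgs1 is thus counted among these windows although it has no expression value. The E-box CACGTG, the core of the CLEAR element of lysosomal genes, was found on either strand in 1 of the 8, that of Ptgs2, and in 7.15% of all 32851 windows. AP-1 was in the Tbxas1 window and in 7.81% of all windows. The STAT6-type element was in the windows of Ptges and Tbxas1 and in 6.95% of all windows. Neither the NF-kB-type nor the PPAR-type element searched was in any of the 8, and these were in 0.411% and 0.0396% of all windows. The 6 bases CATGTG were searched after the Hpgds sequence had been read. Of the 8 windows they were in that of Hpgds alone, 80 bases before the start, and they were in 14.2% of all windows. None of the motifs overlapped another in these windows, and a match is a run of letters, not a shown binding site.

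In the leukotriene branch, Alox5ap encodes the protein that presents arachidonic acid to the lipoxygenase. Its first row read 12.58 on the knockout array and 12.53 on the wild type array. Its second row read 12.54 on the knockout array and 12.61 on the wild type array. The rows differed by 0.05 and -0.07, and their mean by -0.01, so the arrays were close on both rows and the sign was not the same.

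Alox5 encodes the lipoxygenase that starts leukotriene synthesis, and its 2 rows did not give the same picture. The first row read 7.84 on the knockout array and 7.85 on the wild type array, a difference of -0.01. The second row read 8.45 on the knockout array and 9.005 on the wild type array, a difference of -0.55, or 1.47-fold lower on the knockout array. Their mean, -0.28, was smaller than the local spread of 0.33. The exons that each row covers are not known here. With the row of higher mean taken in place of the mean of rows, the difference of Alox5 was -0.55.

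Lta4h encodes leukotriene A4 hydrolase, which makes leukotriene B4. It read 9.27 on the knockout array and 9.28 on the wild type array, a difference of -0.01. Ltc4s encodes leukotriene C4 synthase, which joins leukotriene A4 to glutathione. It read 11.99 on the knockout array and 11.57 on the wild type array, a difference of 0.42, or 1.34-fold. That was larger than the local spread of 0.20 at its level but under 1.5-fold. Genes in the highest decile by level, to which Ltc4s belongs, had a median difference of 0.13. Over the scalings tried, loess centring on level among them, the difference of Ltc4s ran from 0.36 to 0.49. The enzymes that use leukotriene A4 thus read 1.34-fold higher (Ltc4s) and about equal (Lta4h) on the knockout array, neither of them tested.

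The Ltc4s promoter is shown as that of the leukotriene gene with the highest difference; its window lies at chr11:50238483-50238782 on the minus strand (RefSeq, build GRCm38.p6). It held no match to any of the motifs searched, so no letter is in capitals.
Ltc4s: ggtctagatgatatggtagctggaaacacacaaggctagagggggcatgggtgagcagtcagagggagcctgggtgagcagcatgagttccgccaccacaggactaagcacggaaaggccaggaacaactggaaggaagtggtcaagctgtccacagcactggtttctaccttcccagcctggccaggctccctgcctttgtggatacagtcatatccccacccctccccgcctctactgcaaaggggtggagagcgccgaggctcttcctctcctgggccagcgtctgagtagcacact

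Alox15 encodes the mouse 12/15-lipoxygenase, which in mice is abundant in resident peritoneal macrophages and eosinophils and acts on polyunsaturated fatty acids to give hydroperoxides. It read 4.71 on the knockout array and 5.18 on the wild type array. Both readings were below background, so no fold is given.

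**Figure D2:**
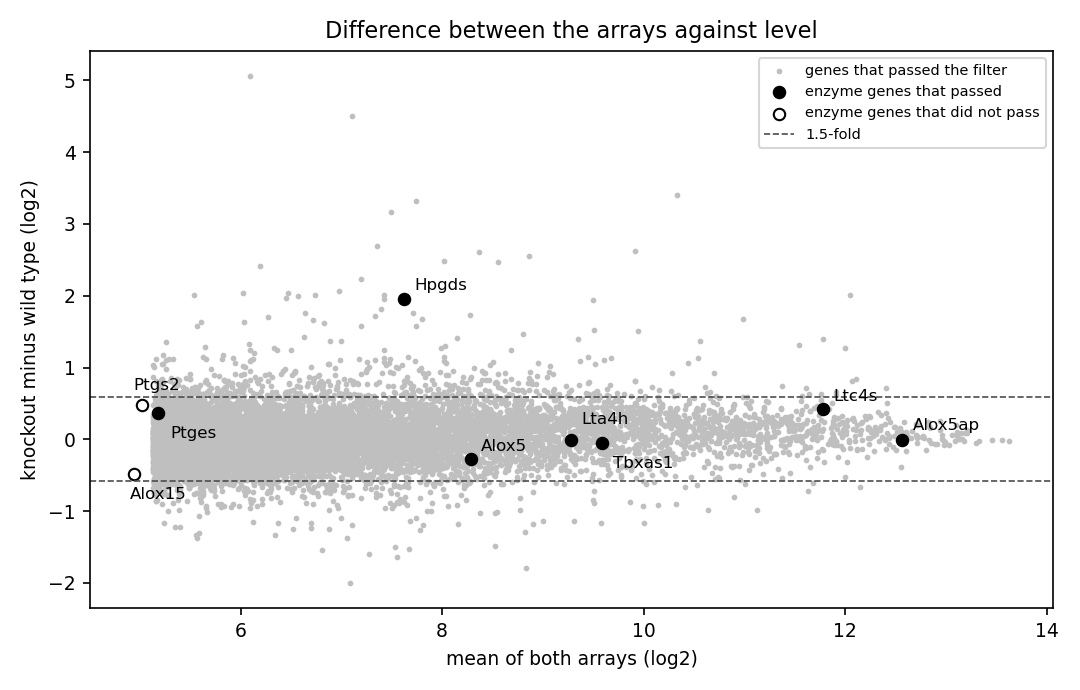
Difference between the arrays (knockout minus wild type, log2) against the mean of both arrays (log2) for the 12516 genes that passed the filter (grey points), with the 7 enzyme genes that passed (filled) and the 2 that did not (open); dashed lines mark 1.5-fold. Hpgds, at 1.96, lies outside the dashed lines, and the other 8 lie between them.

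The rest of the pathway was described from 7 lists of 70 genes, of which 61 were measured and 49 passed the filter. As read, 8 of the 49 were at least 1.5-fold higher on the knockout array (16.3%, beside 4.45% of all genes that passed) and 0 were at least 1.5-fold lower (beside 2.66% of all genes). Of the 8, Ephx2 and Ptgir lay below background on the wild type array, and each is under 1.5-fold when measured from that level. The median difference of the 49 was 0.07, beside 0.00 over all genes that passed. These lists were also drawn up with earlier results known, and no test stands behind the counts.

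Of 12 genes that transport or inactivate eicosanoids, 4 were past 1.5-fold as read, beside 4.45% of all genes, and the list's median difference was 0.17. Ephx2 is among the 4 and is under 1.5-fold measured from background. Ptgr1, prostaglandin reductase 1, which reduces oxidised prostaglandins and also inactivates leukotriene B4, read 10.01 on the knockout array and 8.87 on the wild type array (2.21-fold). Ptgr2, a related reductase, read 8.73 on the knockout array and 8.15 on the wild type array (a difference of 0.59), just past the threshold. Hpgd, the dehydrogenase that begins prostaglandin breakdown, differed by -0.03. The reductases were thus higher on the knockout array, while the dehydrogenase that acts before them was close on both.

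Ephx1, the microsomal epoxide hydrolase, read 8.03 on the knockout array and 7.22 on the wild type array (1.76-fold). Ephx2, the soluble epoxide hydrolase that converts epoxides of arachidonic acid to diols, read 5.66 on the knockout array and 4.99 on the wild type array, at least 1.22-fold higher when measured from background. Cyp4f18, which in mice hydroxylates leukotriene B4, read 8.61 on the knockout array and 8.49 on the wild type array. None of the 12 was 1.5-fold lower, beside 2.66% of all genes that passed. The lowest difference, -0.38, belonged to the transporter gene Abcc4, below background on both arrays.

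Alox5ap, Ltc4s and Ptges belong to the MAPEG family of membrane proteins, most of which use glutathione. Another member, Mgst2, a microsomal glutathione transferase that can also make leukotriene C4, read 9.01 on the knockout array and 8.10 on the wild type array, a difference of 0.91 or 1.88-fold. Its relatives Mgst1 and Mgst3 differed by 0.07 and -0.23. Mgst2 was the single gene of 6 in that list at least 1.5-fold higher (16.7%, beside 4.45% of all genes that passed). The list's median difference was -0.08. Dpep2, a dipeptidase that turns leukotriene D4 into leukotriene E4, read 9.76 on the knockout array and 9.92 on the wild type array. Ggt5, which acts on leukotriene C4, was below background on both.

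Among genes that release or re-esterify arachidonic acid, 2 of 17 were at least 1.5-fold higher (11.8%, beside 4.45% of all genes that passed). The list's median difference was -0.04. Plaat3, a phospholipase A and acyltransferase, read 7.54 on the knockout array and 6.76 on the wild type array (1.72-fold). Lpcat2, which makes phosphatidylcholine and platelet-activating factor, read 6.78 on the knockout array and 6.12 on the wild type array (1.57-fold). Acsl4, which activates arachidonic acid to its coenzyme A ester, differed by 0.48, and Mboat7, which puts it into phosphatidylinositol, by -0.28. Pla2g4a, the cytosolic phospholipase A2 that supplies most arachidonic acid for eicosanoids, read 7.71 on the knockout array and 7.74 on the wild type array. Pla2g15, the lysosomal phospholipase A2, read 10.07 on the knockout array and 10.26 on the wild type array. Neither of these phospholipase genes differed by as much as the local spread.

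None of the 6 other prostanoid synthase genes was 1.5-fold apart, where 4.45% of all genes that passed were higher and 2.66% lower. Their median difference was 0.08. Ptgds, the lipocalin-type prostaglandin D synthase that makes the same product as Hpgds, read 5.34 on the knockout array and 5.78 on the wild type array, a difference of -0.44. The genes for the 2 prostaglandin D synthases thus differed in opposite directions, Ptgds close to background on both arrays. Cbr1, a carbonyl reductase that acts on prostaglandin E2, differed by 0.44, Prxl2b, a prostamide and prostaglandin F synthase, by 0.40, and Ptges3, a co-chaperone with prostaglandin E synthase activity, by -0.15. Of 5 other lipoxygenase genes 4 were below background on both arrays. The exception, Aloxe3, the epidermal lipoxygenase, read 7.86 on the knockout array and 7.41 on the wild type array.

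Of 7 prostanoid receptor genes measured, 4 lay above background on each array. Ptgir, the prostacyclin receptor, read 5.81 on the knockout array and 4.70 on the wild type array, at least 1.36-fold higher measured from background. Ptger4, a prostaglandin E2 receptor, read 5.52 on the knockout array and 6.07 on the wild type array (1.46-fold lower), and Ptger2, another, read 7.83 on the knockout array and 7.74 on the wild type array. Tbxa2r, the thromboxane receptor, differed by 0.14. Ptgfr, the prostaglandin F receptor, read 5.18 on the knockout array, below background, and 5.40 on the wild type array, at least 1.07-fold lower measured from background. Ptgdr, a receptor of the product of Hpgds, read 5.09 on the knockout array and 5.05 on the wild type array, below background on both.

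Of 5 leukotriene and related receptor genes measured, 1 lay above background on the knockout array and 2 on the wild type array. Ltb4r1, the high-affinity leukotriene B4 receptor, read 5.78 on the knockout array and 5.59 on the wild type array. Cysltr1, a cysteinyl leukotriene receptor, read 4.69 on the knockout array, below background, and 5.48 on the wild type array. It did not pass the filter, was chosen after its values were seen, and was at least 1.13-fold lower measured from background. Gpr17, a related orphan receptor, was below background on both.

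**Figure D3:**
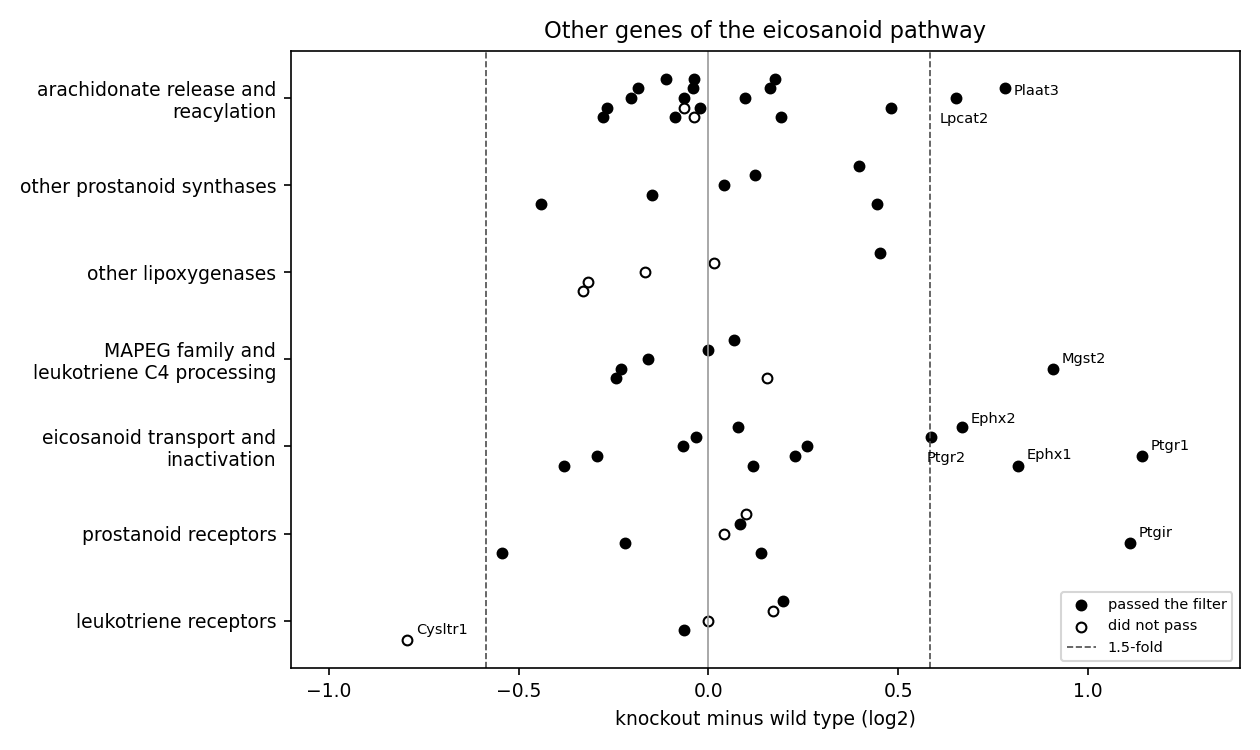
Difference between the arrays (knockout minus wild type, log2) for each of the 61 measured pathway genes outside the enzyme set, by list; filled points passed the filter and open points did not, the vertical offset within a list has no meaning, and dashed lines mark 1.5-fold. Of the filled points, 8 lie past the right dashed line and 0 past the left, and the named open point on the left is Cysltr1.

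Other cell types of the lung also make eicosanoids, and a sorted population can hold some of their RNA, so their markers are given beside these values. In such bulk RNA, fewer cells of a type and less RNA per cell cannot be told apart. Mast cells and basophils, which use Hpgds and Ltc4s, had 3 of 11 markers above background on the knockout array and 2 of 11 on the wild type array. Their summed linear signal was 276 on the knockout array and 279 on the wild type array. Cpa3, Ms4a2, Fcer1a and Mcpt4, which define mast cells and the IgE receptor they share with basophils, were below background on both arrays, while Hdc and Kit read 5.48 and 5.36 on the knockout array, against 6.13 and 5.57 on the wild type array. Mcpt8, a basophil protease gene, read 5.67 on the knockout array and 4.55, below background, on the wild type array.

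Eosinophils, which share Siglec-F with alveolar macrophages, had 2 of 5 markers above background on the knockout array and 0 of 5 on the wild type array. Their summed signal was 150.3 on the knockout array and 99.3 on the wild type array. Prg2, a granule protein gene, read 5.76 on the knockout array and 4.71 on the wild type array, at least 1.31-fold higher. Epx, the eosinophil peroxidase gene, read 5.33 on the knockout array and 4.95 on the wild type array. The knockout reading of Epx was 0.02 above background and did not exceed the wild type background level, so no fold is given. Ccr3, Il5ra and Prg3 were below background on both. Platelet markers, of a lineage that uses Tbxas1, summed to 557 on the knockout array and 373 on the wild type array. Ppbp was 2.01-fold and Pf4 1.57-fold higher, while Itga2b read 5.20 on the knockout array and 5.69 on the wild type array. Of 6 tuft cell markers 5 were below background on both arrays, and Trpm5 read 6.16 on the knockout array and 5.92 on the wild type array.

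Interstitial macrophage markers, of 8 measured, lay above background in 8 on the knockout array and in 6 on the wild type array, with sums of 1223 on the knockout array and 787 on the wild type array. Ms4a7 was 2.38-fold and C1qb 1.56-fold higher, and C1qc read 5.94 on the knockout array and 5.23, below background, on the wild type array. Csf1r and Folr2, of the same list, differed by -0.35 and -0.09. All 10 neutrophil markers lay above background on both arrays and summed to 9679 on the knockout array and 7028 on the wild type array. Camp was 2.12-fold, Retnlg 1.91-fold and Ly6g 1.72-fold higher, while Csf3r was 1.56-fold lower. Of the 10, 5 were at least 1.5-fold higher and 1 lower, beside 4.45% and 2.66% of all genes that passed. Monocyte markers, all 8 of them above background on both, summed to 2122 on the knockout array and 2843 on the wild type array. Fn1 was 2.90-fold, Ms4a4c 2.51-fold and Plac8 2.03-fold lower, while Ccr2, S100a4 and Cd177 of the same list differed by -0.13, 0.05 and 0.00. These sums moved by more than the alveolar macrophage sum, which was 34629 on the knockout array and 34294 on the wild type array. A linear sum weighs the brightest genes most. Of the 10 alveolar macrophage markers, 0 were at least 1.5-fold higher and 2 were at least 1.5-fold lower (20%, beside 2.66% of all genes that passed). These were Krt79 (1.97-fold) and Siglecf (1.66-fold), the gene of a sorted protein. By any amount, 6 of the 10 were higher on the knockout array and 4 lower, with a median difference of 0.14. Marco, with the highest difference of that list (0.57), read 10.03 on the knockout array and 9.46 on the wild type array.

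Epithelial markers lay above background in 9 of 12 on the knockout array and in 8 of 12 on the wild type array, and summed to 8471 on the knockout array and 6451 on the wild type array. Bpifa1 was 5.53-fold and Scgb3a1 2.77-fold higher, and Epcam was 3.98-fold lower. T, NK and B cell markers lay above background in 7 of 8 on both arrays and summed to 1115 on the knockout array and 763 on the wild type array. Gzma (2.21-fold) and Cd3d (1.72-fold) had the largest differences. Of the 8, 5 were higher and 3 lower. The 3 were Cd3e and the B cell markers Cd79a and Ms4a1, which differed by -0.13, -0.15 and -0.06. Endothelial and mesenchymal markers, 4 of 10 above background on both arrays, summed to 495 on the knockout array and 499 on the wild type array. The part of any of these cells in the difference of Hpgds, Ltc4s or the pathway genes was not tested.

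**Figure D4:**
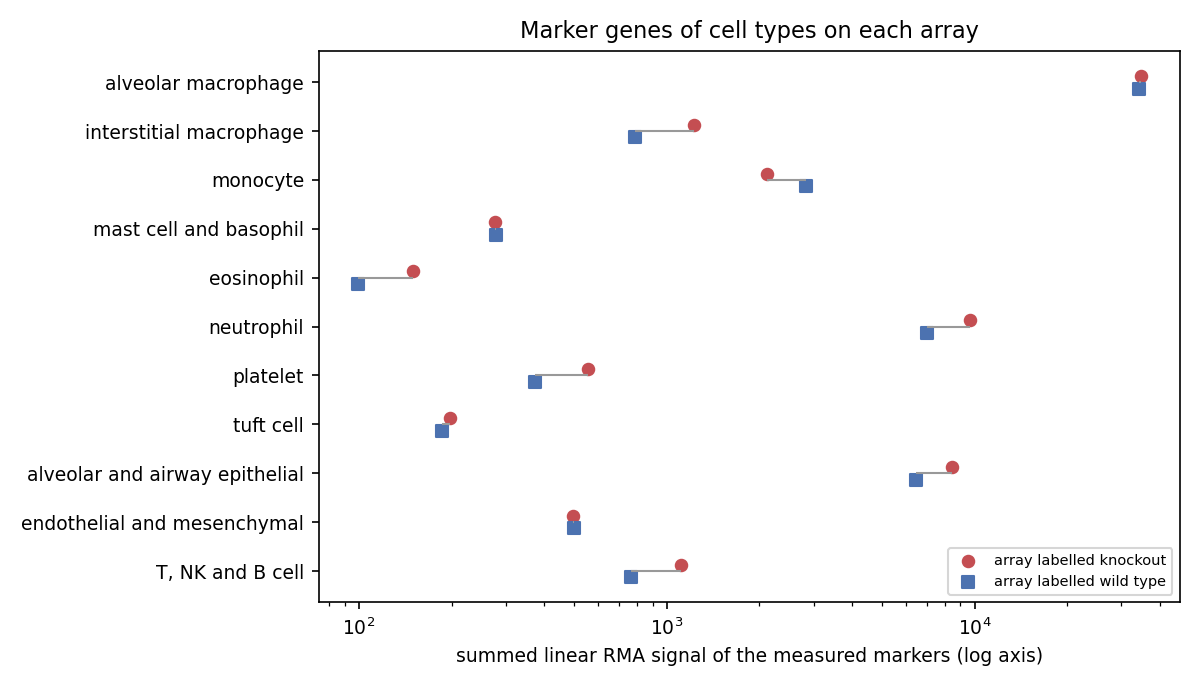
Summed linear RMA signal (log axis, arbitrary units) of the measured markers of each of 11 cell types, with the knockout array as circles and the wild type array as squares, offset vertically for legibility; a sum includes the background signal of each probe set. Interstitial macrophage, eosinophil, neutrophil, platelet, epithelial and lymphocyte sums were higher on the knockout array, monocyte sums were lower, and mast cell sums were close, at 276 on the knockout array and 279 on the wild type array.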

How the data were processed

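Sorted alveolar macrophages were profiled on Affymetrix arrays, 1 array for each genotype. Per the labels' protocols, amplified cDNA from 10 ng of total RNA was labelled with biotin. Per the submitters' processing notes, the authors used RMA, which removes background, brings the probe signals of arrays to one distribution and summarises probes. The deposited values are on a log2 scale, judged by that method and by their range. It was 0.83 to 13.78 on the knockout array and 0.77 to 13.86 on the wild type array. The deposited rows did not share exactly one distribution, with sorted values of the 2 arrays up to 0.11 apart. No version, array annotation or build is given in the sources used here.

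Of 41345 rows, 23521 have 1 gene symbol in the platform annotation, 1814 have several and 16010 are not listed. Rows of a gene were averaged. Members and lists were chosen with earlier results of these data known. The named genes are all members, up to 4 genes of each of 7 pathway lists and up to 3 of each of 11 marker lists. List genes were taken by largest absolute difference among genes that passed the filter, with defining markers at background. Hpgd, Pla2g4a, Pla2g15, Mgst1, Ptger2, Ptgdr, Cyp4f18, Abcc4, Cysltr1, Mcpt8 and Itgax were added for their roles or after their values were seen. Csf3r, Csf1r, Folr2, Cd3e, Cd79a and Ms4a1 were added as markers that went the other way from those named. Ccr2, S100a4 and Cd177 were added as monocyte markers that were close on both arrays. A fold for a gene below background on 1 array is measured from that level and written "at least". With 1 array for each genotype no test could be made, and the number of arrays limits the precision. The code was run on simulated data with changes set well past the threshold and noise held under it. That run checks the arithmetic alone, since its outcome was fixed by those settings. The local spread was taken in 20 bins of level. Alternatives were median centring, quantile normalisation, loess centring (span 0.3), adding 32 before taking logs, using only the brightest row of a gene, 3 other filters, and other thresholds. Analyses used Python 3.11.15, pandas 2.3.3 and statsmodels 0.14.6. A planned comparison of protein sequences was not made.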

Additional observations from a re-analysis of the deposited data

How the results depend on the processing

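The count of enzyme genes past the threshold was 1 higher and 0 lower under every filter, scaling, summary and threshold tried, 3-fold and 3 local spreads included. The sign of the difference changed for Alox5ap (-0.07 to 0.06), Lta4h (-0.08 to 0.05) and Tbxas1 (-0.13 to 0.02), all near 0, and for no other enzyme over 6 settings. Of the other pathway genes, 5 were past 1.5-fold higher with the offset of 32, 2 at 2-fold, 0 at 3-fold and 2 at 3 local spreads, against 8 as reported. With no filter, or with the filter at the receptor background on at least 1 array, 1 was lower, against 0; it is Cysltr1. Of all genes, 557 were higher and 333 lower as reported. These counts were 293 and 121 with the offset, 969 and 833 when no genes were left out, 371 and 175 when genes under the 75th percentile of level were, 116 and 42 at 2-fold, 37 and 4 at 3-fold, and 197 and 93 at 3 local spreads; median centring gave 735 higher and 219 lower. Offsets, filters and thresholds change these counts by construction. Median centring moved the median of all genes that passed from 0.00 by 0.07. No paired analysis was possible because each genotype has 1 array, and for the same reason no array could be left out. Ptgs2, Ptges and Alox15 are limited by signal over background.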

Other observations

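Gene lists added after the other values were seen covered steps on either side of the enzymes. Fabp4 and Fabp5, fatty acid binding proteins that carry arachidonic acid among other lipids, were higher on the knockout array. Fabp4 read 12.22 on the knockout array and 11.60 on the wild type array (1.54-fold). Fabp5, the mean of 4 rows, read 12.76 on the knockout array and 12.04 on the wild type array (1.64-fold). Genes in the highest decile by level, to which both belong, had a median difference of 0.13. In their list, of arachidonate binding and phospholipase A2 restraint, 3 of 6 genes were higher and 3 lower, with a median difference of 0.10. Anxa1, which restrains phospholipase A2, read 12.52 on the knockout array and 12.68 on the wild type array, and Cotl1, whose product binds the Alox5 protein, read 7.42 on the knockout array and 7.73 on the wild type array. Of 6 cytochrome P450 epoxygenase genes measured, 5 were below background on both arrays. Elovl5 and Fads1, which act in the synthesis of arachidonic acid, differed by -0.15 and -0.14.

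On chromosome 6, a gene a few places from Hpgds in order also stood far apart between the arrays. Order was taken among genes that passed the filter, and distance in bases was not measured. The 10 genes next to Hpgds were taken as 5 on each side in the RefSeq order. Of these, Abcg2, an efflux transporter gene 5 places from Hpgds, read 9.25 on the knockout array and 6.77 on the wild type array, a difference of 2.48. Mad2l1, of the spindle checkpoint, differed by 0.69, and the median of the 10 was 0.14. Around Ltc4s the 10 genes next in that order had a median difference of -0.21 and a highest of 0.01, against 0.42 for Ltc4s itself. Neighbours this far apart were not particular to Hpgds. At least 1.5-fold higher were 2 of 10 around Hpgds and 2 of 10 around Lta4h, which itself was close on both arrays. Around Ptgs2, Alox5 and Alox15 it was 1 of 10 each, beside 4.45% of all genes that passed. Whether position bears on these values was not tested.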
